A study of Mus musculus with 21 samples.

Results

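Krt6a, Krt6b, Krt16 and Krt17 are the keratins that epidermis makes when it is wounded or stressed. They were taken from the deposited count table by gene name, and all 4 were found among its 23713 genes. The table holds bulk RNA sequencing of keratinocytes isolated from mouse tail skin, from 3 mouse models of basal cell carcinoma (BCC) that the labels call SmoM2, Gnas-eKO and PKI. Each model had 3 libraries from control mice with tumour-free epidermis (Con) and 4 from tumour-bearing mice (BCC). SmoM2 mice were sampled at day 29 after induction and formed batch A, Gnas-eKO mice at day 42 formed batch B, and PKI mice at day 57 formed batch C. Model, day and batch therefore cannot be told apart, but each comparison of BCC with Con stays inside 1 batch. SmoM2 is the usual name of an activated form of the Hedgehog receptor Smoothened, Gnas is the gene of the G protein subunit that activates adenylyl cyclase, and PKI is the usual name of a peptide inhibitor of protein kinase A. The labels do not describe the alleles, the promoter that drives them, the inducing agent, the genotype of the controls, or the strain, age and sex of the mice.

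Keratins form the intermediate filaments of epithelial cells, and each filament pairs a type II keratin with a type I keratin. Resting epidermis between the hair follicles is built from the pair Krt5 and Krt14 in its basal layer and from Krt1 and Krt10 above it, whereas the type II keratins Krt6a and Krt6b and the type I keratins Krt16 and Krt17 are normally held to the hair follicle, nail and other appendages. Injury, inflammation and tumour growth switch them on between the follicles, and Krt17 is also known as a gene that responds to Hedgehog signalling in hair follicles and basal cell carcinoma.

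The type II members lie side by side on chromosome 15 and the type I members on chromosome 11, all on the minus strand of the mouse build GRCm38 with the gene models of GENCODE M21. Krt6a (ENSMUSG00000058354.7) spans chr15:101689910-101694307 in 9 exons, and Krt6b (ENSMUSG00000023041.7) spans chr15:101676023-101680287 in 9 exons. Krt16 (ENSMUSG00000053797.10) spans chr11:100246091-100248902 in 8 exons, and Krt17 (ENSMUSG00000035557.9) spans chr11:100256217-100261029 in 8 exons. Both type II genes overlap short genes on the other strand. Krt6a overlaps the antisense gene Gm49428, listed with at most 11 counts in a library, and the miRNA gene Gm44342, with at most 2.5. Krt6b overlaps the miRNA gene Gm44383, with at most 2.5.

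Krt6a and Krt6b are near-identical, which bears on every value given for either of them. Their coding sequences matched at 1622 of 1662 aligned positions, or 97.6%, with an identical run of 280 bases, while Krt16 and Krt17 matched at 70.4%, with no identical run over 55 bases. The stretch below lies in exon 4 of both genes, at coding bases 787 to 876, and is shown because its 12 differing bases, in capitals, are among the positions by which reads of the 2 genes can be told apart. It was read 5′ to 3′ from the GENCODE M21 coding sequences, at chr15:101692484-101692573 for Krt6a and chr15:101678303-101678392 for Krt6b on the minus strand.
Krt6a: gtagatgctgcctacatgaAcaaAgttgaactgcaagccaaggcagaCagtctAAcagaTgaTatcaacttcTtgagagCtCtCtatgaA
Krt6b: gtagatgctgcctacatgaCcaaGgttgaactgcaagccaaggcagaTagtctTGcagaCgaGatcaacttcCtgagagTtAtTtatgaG

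Of all 50-base windows of the Krt6a transcript, 49.5% occurred in the transcript of at least 1 other gene, and 34% of its 100-base windows did. The shares were 50.1% and 30.6% for Krt6b, 37.6% and 24.3% for Krt16, and 3.99% and 0% for Krt17. Krt16 shared its windows with Krt14, Krt17 and Gm11597. Krt6a and Krt6b shared windows with each other and with Krt5, Krt76, Gm5414 and Gm5478, so even their sum can depend on reads shared with those genes. How the authors' counting divided such reads is not given in the sources used here, so the values of Krt6a, Krt6b and Krt16 are uncertain to that extent, and the sum of Krt6a and Krt6b was tested as well.

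The libraries held 16645858 to 22251132 counts, and all 4 keratins passed the filter on low counts in every model. Levels are given in CPM, read counts scaled to a common depth with library sizes adjusted by the trimmed mean of M values (TMM), and 3 counts correspond to at most 0.189 CPM. Smo was at 283 to 312 CPM in SmoM2 BCC against 93.6 to 110 in Con. A rise of Smo was not particular to SmoM2. It was at 150 to 233 CPM in Gnas-eKO BCC against 106 to 113 in Con, and at 138 to 161 CPM in PKI BCC against 98 to 113 in Con. Gnas was at 51.1 to 115 CPM in Gnas-eKO BCC against 172 to 178 in Con. Pkia, the gene of an inhibitor of protein kinase A, was at 2.1 to 3.74 CPM in PKI BCC and 3.72 to 4.98 in Con, which does not check that label because the construct is not described. In a principal component analysis the BCC libraries lay at 32.4 to 59.4 on the first component and the Con libraries at -57.2 to -40.4, except that Gnas-eKO BCC replicate 2 lay at -20.4. The Gnas-eKO tests of the 4 keratins, and the counts over the lists of other keratins, wound-activated genes and regulators, are therefore given with and without that library. Animals of SmoM2 BCC are named in the headers with another prefix than animals of SmoM2 Con, whose meaning the sources do not give, and tumour and prefix cannot be told apart in that model. The keratinocyte markers Krt5, Krt14, Krt1, Krt10, Trp63, Cdh1, Epcam and Dsp were detected in every group, with a summed level of 28909 to 75133 CPM over the libraries. In SmoM2 the sum was 56113 to 72528 CPM in Con and 37468 to 52369 in BCC. Gnas-eKO had 56640 to 67521 CPM in Con and 28909 to 49616 in BCC. PKI had 50838 to 68567 CPM in Con and 45940 to 75133 in BCC.

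Krt6a, a type II keratin, was present at a high level in every library and was highest in PKI tumours. In SmoM2 its level was 1326, 1236 and 667 CPM in the 3 Con libraries and 1132, 1096, 3157 and 2380 CPM in the 4 BCC libraries. In Gnas-eKO it was 1113, 836 and 992 CPM in Con and 2292, 712, 2335 and 2516 CPM in BCC. In PKI it was 711, 791 and 897 CPM in Con and 8804, 7119, 4613 and 4519 CPM in BCC. Con and BCC overlapped in SmoM2, where replicates 1 and 2 of BCC lay within the range of Con, and in Gnas-eKO, where BCC replicate 2 lay below all Con libraries. In PKI the lowest BCC library was 5.04 times the highest Con library.

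Krt6b is the neighbouring type II gene, and as a ratio, though not in CPM, its levels spanned the widest range of the 4 over the 21 libraries. In SmoM2 it was at 189, 96.2 and 79.6 CPM in Con and at 110, 64.4, 517 and 294 CPM in BCC. In Gnas-eKO it was at 136, 96.9 and 121 CPM in Con and at 512, 98.4, 589 and 477 CPM in BCC. Both models again overlapped between Con and BCC, through the same BCC libraries as for Krt6a. In PKI it was at 5.06, 8.55 and 4.92 CPM in Con and at 4137, 3020, 1302 and 1715 CPM in BCC, and the lowest BCC library was 152 times the highest Con library. PKI Con libraries lay below all Con libraries of the other 2 models, a difference between batches that no test here covers.

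Krt16, a type I keratin and a usual partner of the Krt6 proteins, was higher in every BCC library than in every Con library of its model. In SmoM2 it was at 193, 194 and 94.5 CPM in Con and at 353, 260, 840 and 720 CPM in BCC. In Gnas-eKO it was at 128, 89.1 and 107 CPM in Con and at 439, 169, 1257 and 606 CPM in BCC. In PKI it was at 73.2, 68.5 and 44.2 CPM in Con and at 6420, 6232, 3195 and 3425 CPM in BCC. The gap between the groups was widest in PKI, where the lowest BCC library was 43.6 times the highest Con library.

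Krt17, the other type I member, also separated BCC from Con in all 3 models, but its highest levels were in SmoM2. There it was at 1379, 1422 and 1007 CPM in Con and at 5184, 5077, 5696 and 5535 CPM in BCC, a coefficient of variation of 5.41% among the BCC libraries. In Gnas-eKO it was at 1427, 1062 and 945 CPM in Con and at 3631, 1729, 3918 and 4374 CPM in BCC. In PKI it was at 1054, 903 and 947 CPM in Con and at 4180, 2667, 1916 and 1834 CPM in BCC, and the lowest BCC library was 1.74 times the highest Con library. Every BCC library thus lay above every Con library for 2 of the 4 keratins in SmoM2, beside 19.6% of all genes tested, for 2 in Gnas-eKO, beside 9.97%, and for 4 in PKI, beside 22.4%.

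**Figure D1:**
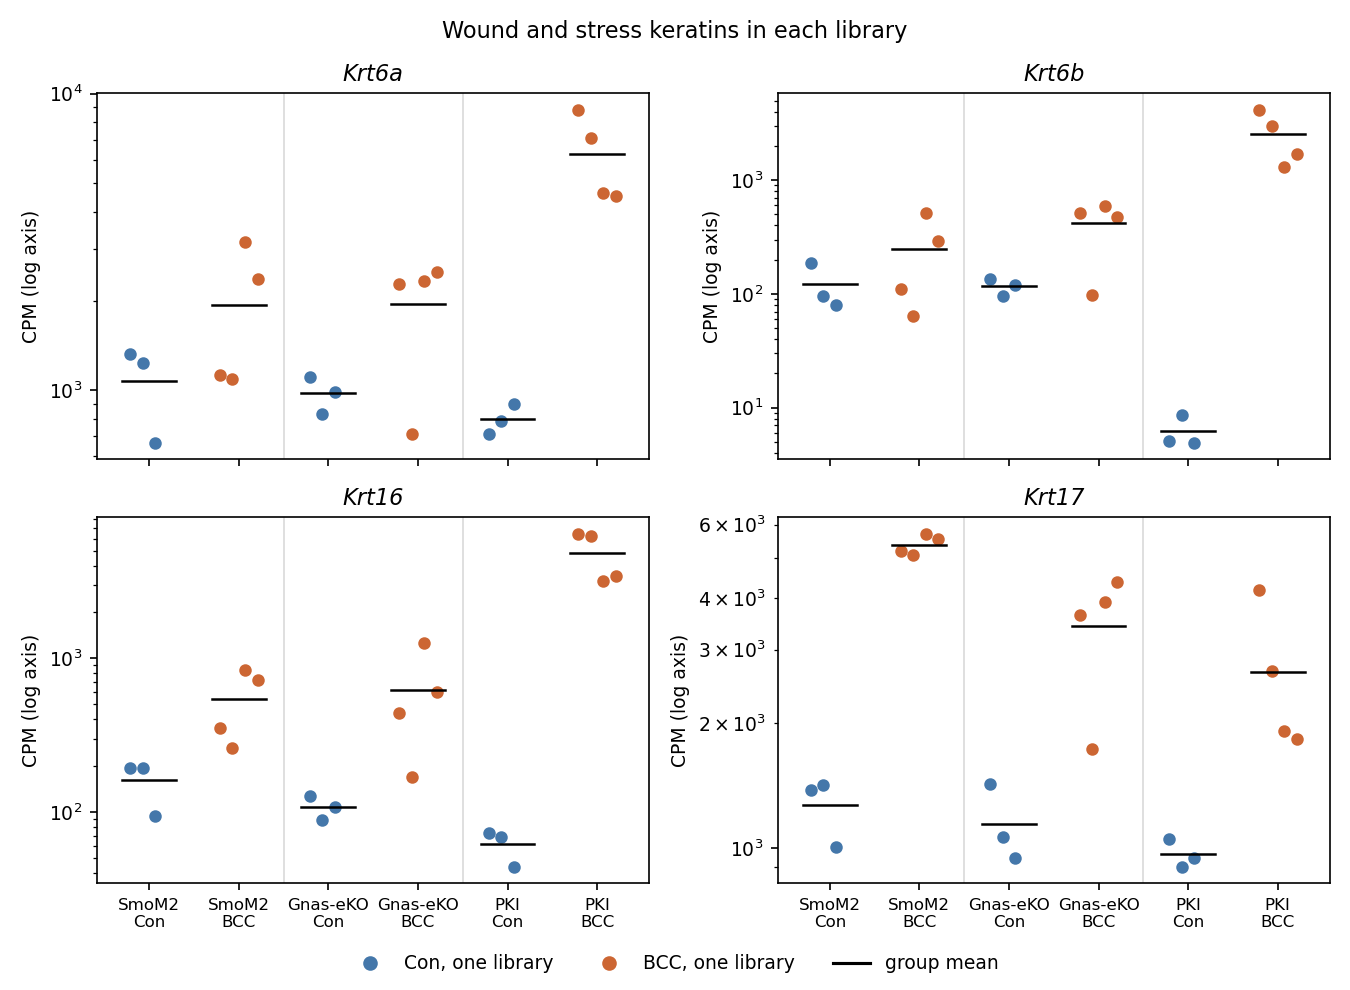
Level of each keratin in CPM (log axis) in the 6 groups, with 1 point per library (3 Con and 4 BCC per model) and a line at each group mean. Krt16 and Krt17 do not overlap between Con and BCC in any model, Krt6a and Krt6b overlap in SmoM2 and Gnas-eKO, and Krt6b in PKI runs from at most 8.55 CPM in Con to at least 1302 CPM in BCC.

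The order of the BCC libraries was shared by the 4 genes in part, and that of PKI Con was not. In SmoM2 BCC all 4 keratins were highest in replicate 3, then 4, then 1, then 2, but the spread differed. The highest library was 8.04 times the lowest for Krt6b, 3.23 times for Krt16, 2.88 times for Krt6a and 1.12 times for Krt17. Gnas-eKO BCC replicate 2 was the lowest of its group for all 4 genes, and PKI BCC replicate 1 was the highest of its group for all 4. In PKI Con, replicate 3 was the highest for Krt6a and the lowest for Krt6b and Krt16.

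In order of group means, Krt6a ran from PKI BCC (6264 ± 2078 CPM, SD, n = 4) through Gnas-eKO BCC (1964 ± 840) and SmoM2 BCC (1941 ± 1007) to SmoM2 Con (1076 ± 358, n = 3), Gnas-eKO Con (980 ± 139) and PKI Con (800 ± 93.3). The first step was the one between neighbours without overlap. Krt6b followed the same order, from 2543 ± 1291 CPM in PKI BCC through 419 ± 219, 247 ± 206, 122 ± 59.1 and 118 ± 19.7 CPM to 6.18 ± 2.06 CPM in PKI Con. Its first and last steps were without overlap.

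Krt16 had the same order, with 3 steps between neighbours that did not overlap. It stood at 4818 ± 1745 CPM in PKI BCC, then at 618 ± 463 in Gnas-eKO BCC and 543 ± 280 in SmoM2 BCC, then at 160 ± 57.2 in SmoM2 Con and 108 ± 19.5 in Gnas-eKO Con, and at 62 ± 15.6 in PKI Con. Krt17 had another order, with SmoM2 BCC first at 5373 ± 291 CPM, apart from Gnas-eKO BCC at 3413 ± 1163 and PKI BCC at 2649 ± 1087, which overlapped each other. The Con groups of Krt17, at 1269 ± 228, 1144 ± 252 and 968 ± 77.5 CPM, overlapped one another and no BCC group.

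Within each model, BCC was compared with Con by edgeR's quasi-likelihood test over all genes that passed the filter, with Benjamini-Hochberg adjustment, and a gene was called at an adjusted p under 0.05. The labels do not say how mice were assigned to groups or which were littermates, so the p-values measure only the spread between these libraries. As these are bulk samples, fewer or more cells of a type and less or more RNA per cell cannot be told apart in any difference below.

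In SmoM2, Krt17 rose and was the 1 member called, while 4860 of 16370 genes, or 29.7%, were called in that comparison. Krt17 was 4.28-fold higher in BCC, or 2.10 on the log2 scale (SE 0.12, edgeR adjusted p = 3.56e-06), 537th from the top among the genes tested. The log2 fold change was 1.77 for Krt16 (SE 0.54, edgeR adjusted p = 0.0575), 1.03 for Krt6b (SE 0.83, adjusted p = 0.415) and 0.87 for Krt6a (SE 0.49, adjusted p = 0.255). The summed Krt6a and Krt6b counts gave 0.88 (SE 0.52, edgeR adjusted p = 0.271). Without SmoM2 BCC replicate 3 the log2 fold changes of Krt6b and Krt6a were 0.38 and 0.53. Krt16 was called without SmoM2 BCC replicate 2 (edgeR adjusted p = 0.0356), and by DESeq2's Wald test (log2 fold change 1.77, adjusted p = 0.00298).

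In Gnas-eKO all 4 log2 fold changes were positive and none passed the edgeR threshold, where 267 of 16409 genes, or 1.63%, were called. The values were 2.53 for Krt16 (SE 0.59, edgeR adjusted p = 0.072), 1.84 for Krt6b (SE 0.52, adjusted p = 0.111), 1.59 for Krt17 (SE 0.34, adjusted p = 0.0579) and 1.01 for Krt6a (SE 0.40, adjusted p = 0.213). All 4 had an unadjusted edgeR p under 0.05, as did 3212 of 16409 genes, and DESeq2 called 3 of them, Krt6b, Krt16 and Krt17, among 1540 genes. Without BCC replicate 2, edgeR called all 4 keratins, against 1910 of 16195 genes or 11.8%. The log2 fold changes were then 2.84 for Krt16 (edgeR adjusted p = 0.00435), 2.17 for Krt6b (0.000567), 1.81 for Krt17 (0.00296) and 1.29 for Krt6a (0.00478). In that library Gnas was at 89.5 CPM, within the range of the other 3 BCC libraries.

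In PKI all 4 keratins rose, where 5653 of 16397 genes, or 34.5%, were called. Krt6b was 416-fold higher, or 8.70 on the log2 scale (SE 0.65, edgeR adjusted p = 0.000356), and ranked 6th from the top of all genes tested. It rose from a Con mean of 6.18 CPM, against 122 in SmoM2 Con and 118 in Gnas-eKO Con. Krt16 was 78.5-fold higher, at 6.29 (SE 0.41, edgeR adjusted p = 0.000141), and ranked 37th. Krt6a rose 7.9-fold, at 2.98 (SE 0.27, edgeR adjusted p = 0.000348), and Krt17 rose 2.76-fold, at 1.47 (SE 0.30, edgeR adjusted p = 0.00861). These ranked 358th and 1020th. The sum of Krt6a and Krt6b, which does not depend on how reads were divided between them, rose 11-fold, at 3.46 (SE 0.33, edgeR adjusted p = 0.000436).

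**Figure D2:**
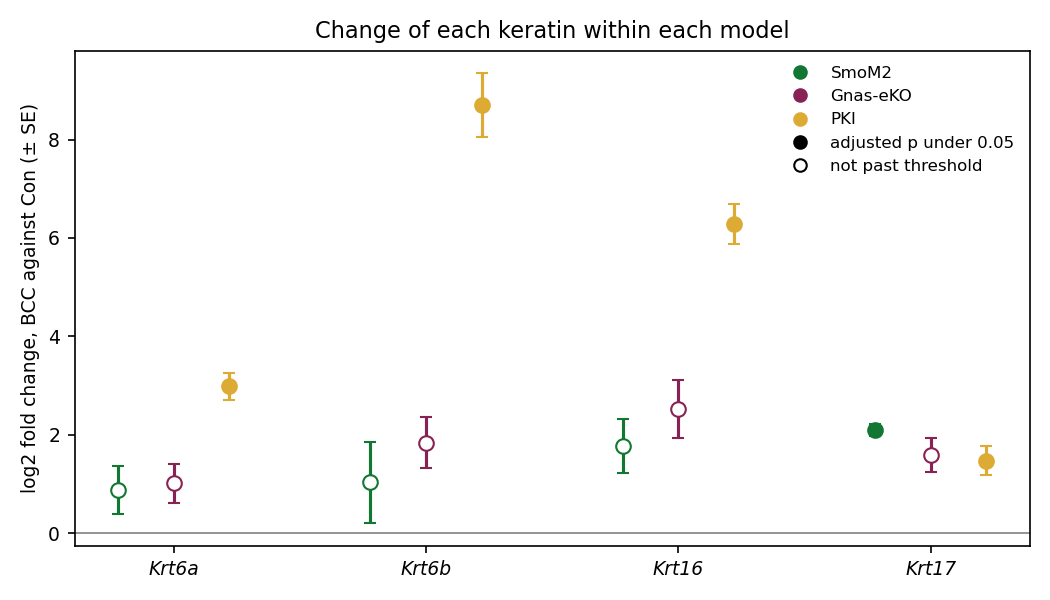
Log2 fold change of BCC against Con for each keratin in each model, with bars of 1 SE from edgeR; filled points passed an adjusted p of 0.05. Krt17 lies between 1.47 and 2.10 in all 3 models, whereas Krt6b runs from 1.03 in SmoM2 to 8.70 in PKI.

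The models differed in the rise of Krt6a, Krt6b and Krt16, and no difference was called for Krt17. The difference between 2 models was tested in edgeR as an interaction over their 14 libraries. Against SmoM2, the PKI log2 fold change was higher by 7.67 for Krt6b (SE 1.09, edgeR adjusted p = 0.000778), by 4.52 for Krt16 (SE 0.66, adjusted p = 0.000835) and by 2.12 for Krt6a (SE 0.57, adjusted p = 0.0209). The Krt6b difference rests on Con as well as BCC. Its Con means were 6.18 CPM in PKI and 122 in SmoM2, and its BCC means were 2543 and 247 CPM. Krt17 gave -0.63 (SE 0.33, edgeR adjusted p = 0.19). Thus 3 of 4 members were called, with 24.9% of 17261 genes called. The call for Krt6a was lost without SmoM2 Con replicate 2 (edgeR adjusted p = 0.0504) and without PKI Con replicate 1 (0.0542), and Krt17 was called without PKI BCC replicate 1, at -0.94 (edgeR adjusted p = 0.00525).

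Against Gnas-eKO, the PKI log2 fold change was higher by 6.87 for Krt6b (SE 0.80, edgeR adjusted p = 0.00119), by 3.77 for Krt16 (SE 0.72, adjusted p = 0.00844) and by 1.97 for Krt6a (SE 0.50, adjusted p = 0.0279). Here too the Krt6b difference rests on Con as well as BCC, with Con means of 6.18 CPM in PKI and 118 in Gnas-eKO. The BCC means were 2543 and 419 CPM. Krt17 gave -0.11 (SE 0.45, edgeR adjusted p = 0.901). Here too 3 of 4 members were called, with 9.06% of 17254 genes called. The call for Krt6a was lost in 8 of 14 fits that left out 1 library, namely each of the 3 Gnas-eKO Con and 3 PKI Con libraries and PKI BCC replicates 1 and 2, with edgeR adjusted p from 0.0505 to 0.0689. Without Gnas-eKO BCC replicate 2 the differences were 6.54 for Krt6b (edgeR adjusted p = 0.000134), 3.46 for Krt16 (0.00222), 1.70 for Krt6a (0.00594) and -0.34 for Krt17 (0.597). Both contrasts with PKI use the same PKI libraries.

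Between Gnas-eKO and SmoM2 edgeR called none of the 4 keratins, nor did DESeq2, and none had an unadjusted edgeR p under 0.05, with 0.175% of 17151 genes called. The differences, Gnas-eKO minus SmoM2, were 0.15 for Krt6a (SE 0.62), 0.81 for Krt6b (SE 0.97), 0.76 for Krt16 (SE 0.80) and -0.50 for Krt17 (SE 0.36). Without Gnas-eKO BCC replicate 2 they were 0.43, 1.13, 1.06 and -0.29 in the same order, with none called and 79 genes called against 30. With 1 library left out, Krt6b ran from 0.34 to 1.47 and Krt16 from 0.15, without Gnas-eKO BCC replicate 3, to 1.06. At 2 standard errors a difference of more than 1 log2 unit is allowed for each of the 4, so a like response in the 2 models is not shown.

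Levels of different genes can be compared only per transcript length, and on that scale, CPM per kb, Krt17 led the group in SmoM2 and Gnas-eKO tumours and Krt16 had the highest mean in PKI tumours. In Con, Krt17 and Krt6a were the most abundant in every model, at 624 ± 49.9 to 818 ± 147 and 351 ± 41 to 472 ± 157 CPM per kb (mean ± SD, n = 3). Krt16 stood at 39.6 ± 9.97 to 103 ± 36.5 and Krt6b at 2.76 ± 0.922 to 54.4 ± 26.5 CPM per kb. In SmoM2 BCC Krt17 reached 3464 ± 188 CPM per kb, against 852 ± 442 for Krt6a, 347 ± 179 for Krt16 and 110 ± 92.2 for Krt6b (n = 4). Gnas-eKO BCC had the same order, at 2201 ± 750, 862 ± 369, 395 ± 296 and 188 ± 97.9 CPM per kb. In PKI BCC Krt16 stood first at 3078 ± 1115 CPM per kb, followed by Krt6a at 2750 ± 912, Krt17 at 1708 ± 701 and Krt6b at 1138 ± 577.

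Krt16 made up 5.95 ± 1.36% of the type I pair in PKI Con and 64.4 ± 4.11% in PKI BCC. Its share was 10.9 ± 2.05% in SmoM2 Con, 8.83 ± 3.85% in SmoM2 BCC, 8.63 ± 1.25% in Gnas-eKO Con and 13.9 ± 6.92% in Gnas-eKO BCC. Krt6b made up 0.788 ± 0.274% of the Krt6 pair in PKI Con and 28.2 ± 4.32% in PKI BCC. Its share was 10.3 ± 2.72% and 10 ± 3.65% in SmoM2 and 10.9 ± 0.29% and 16.9 ± 3.49% in Gnas-eKO. Both shares separated all PKI BCC from all PKI Con libraries. The Krt6b share did so in Gnas-eKO too, at 10.6 to 11.1% in Con and 12.3 to 20.5% in BCC.

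The mean share of the type II keratins among the 4 was lower in SmoM2 and Gnas-eKO tumours than in Con and higher in PKI tumours. It went from 35.8 ± 4.05% to 19.1 ± 7.29% in SmoM2, from 37.7 ± 3.73% to 27.9 ± 3.95% in Gnas-eKO and from 34.8 ± 4.14% to 44.7 ± 0.747% in PKI. The PKI BCC libraries lay close together, between 44% and 45.7%. Con and BCC libraries did not overlap in this share in any model. Tested by exact permutation of the 7 libraries of a model, two-sided, the p was 0.0286 for all 3 shares in PKI and for the type II share in Gnas-eKO, the smallest the design allows. For the other 5 the exact p was 0.0571 to 0.943. Adjusted over the 9 tests, the smallest value was 0.0643, so none of the shares passed 0.05 after adjustment. The direction for the Krt6b share in SmoM2 rests on single libraries: the difference of BCC minus Con lay between -1.72 and 1.22 percentage points when 1 library was left out. The Krt16 share in Gnas-eKO differed by 1.91 points without BCC replicate 3 and by 7.01 without replicate 2, and in SmoM2 by -3.34 points without BCC replicate 3 and -0.701 without replicate 2. Without Gnas-eKO BCC replicate 2 the Krt6b share differed by 7.49 points and the type II share by -7.99.

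**Figure D3:**
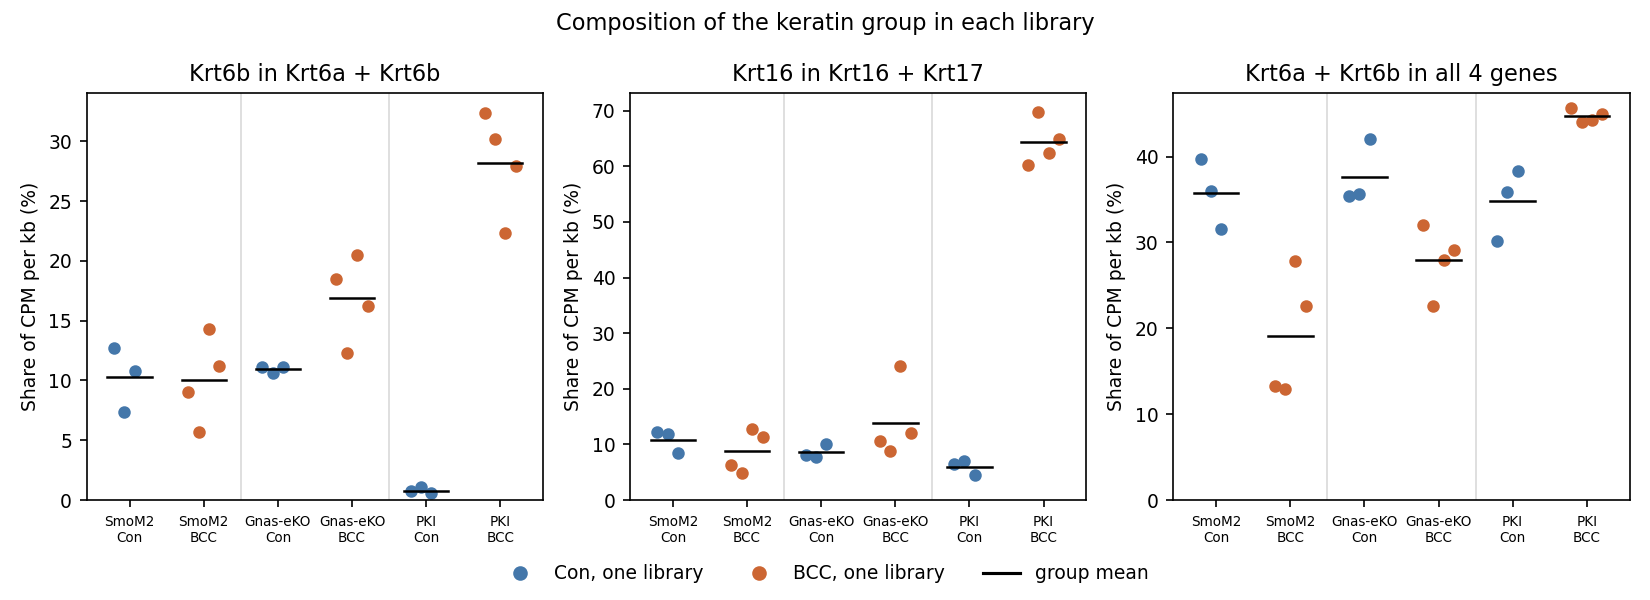
Share of CPM per kb (%) taken by Krt6b among Krt6a and Krt6b, by Krt16 among Krt16 and Krt17, and by the type II keratins among all 4, with 1 point per library and a line at each group mean. In PKI the Krt16 share goes from a mean of 5.95% in Con to 64.4% in BCC and the Krt6b share from 0.788% to 28.2%.

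Together the 4 genes took 0.263 ± 0.0679% of all CPM in SmoM2 Con and 0.81 ± 0.178% in SmoM2 BCC. They took 0.235 ± 0.0394% in Gnas-eKO Con, 0.641 ± 0.253% in Gnas-eKO BCC, 0.184 ± 0.00617% in PKI Con and 1.63 ± 0.608% in PKI BCC. These shares are of counts and so weight longer transcripts more.

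Of the keratins of resting epidermis, Krt5 and Krt14 were lower or not called in each model, and Krt1 was higher in PKI. Krt5, the type II keratin of the basal layer, had a log2 fold change of -0.31 in SmoM2, a fall (edgeR adjusted p = 0.0239), and of -0.24 in PKI, also a fall (0.0339), and had -0.67 in Gnas-eKO (0.268). Its type I partner Krt14 fell in SmoM2 from 13156 ± 2118 to 5659 ± 327 CPM (edgeR adjusted p = 3.65e-05), and had a log2 fold change of -1.19 in Gnas-eKO (0.132) and -0.00 in PKI (0.986). Per length, Krt17 at 3464 CPM per kb was thus above Krt14 at 3333 in the mean of SmoM2 BCC, whereas in SmoM2 Con it was at 818 against 7748. In PKI BCC, Krt14 stood at 7875 CPM per kb, above each of the 4 keratins.

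Of the suprabasal pair, Krt10 fell by 0.81 in SmoM2 (edgeR adjusted p = 0.0186) and had -0.80 in Gnas-eKO (0.155) and -0.52 in PKI (0.474). Krt1 rose by 1.80 in PKI (edgeR adjusted p = 0.0414) with 0.47 in SmoM2 (0.586) and 0.36 for Gnas-eKO (0.805). Krt75, a type II keratin of the companion layer of the hair follicle, rose in PKI from 18.6 ± 8.2 to 208 ± 31.5 CPM, by 3.49 on the log2 scale (edgeR adjusted p = 0.000323). It had -0.24 in SmoM2 (0.668) and 1.02 in Gnas-eKO (0.282).

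Among the 23 other keratins of a list drawn up for this purpose, 1 rose and 7 fell of 20 tested in SmoM2 (median log2 fold change -0.50), where 29.7% of all genes were called, and 9 rose and 7 fell of 21 in PKI (median -0.00), where 34.5% of all genes were called. Krt4, among the 9, passed the filter on low counts in PKI alone, at 0.162 CPM in Con and 0.523 CPM in BCC. In SmoM2 Krt7, a keratin of simple and glandular epithelia, rose by 0.77, and Krt2 and Krt24, keratins of differentiated epidermis, fell by 1.80 and 1.58. In PKI the inner root sheath keratins Krt27 and Krt71 rose by 4.84 and 4.53, and Krt19, a keratin of hair follicle stem cells, rose from 0.138 ± 0.101 CPM, under the level of 3 counts, to 2.98 ± 0.941 CPM. Krt24, Krt2 and Krt78, keratins of differentiated epidermis, fell there by 2.91, 2.37 and 1.81. In Gnas-eKO edgeR called none of 20, where 1.63% of all genes were called, with 4 higher and 3 lower at an unadjusted p under 0.05, as had 3212 of 16409 genes. DESeq2 called 0 higher and 3 lower of 23, among 1540 genes, and edgeR without BCC replicate 2 called 1 higher and 4 lower of 20, where 11.8% of all genes were called.

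Other genes known to be switched on in wounded or inflamed epidermis went up with the 4 keratins in PKI. Of the 29 tested from a list of 36, 25 rose and none fell, where 34.5% of all genes were called in either direction, with a median log2 fold change of 1.84 beside -0.0012 over all genes tested. Il24 and Il1b, both among the 25, passed the filter on low counts in PKI alone, through the tumours in which they are high. S100a8 and S100a9, the subunits of calprotectin, rose by 8.82 and 8.88, to 908 ± 562 and 1078 ± 729 CPM. Leukocytes also make several genes of this list, S100a8 and S100a9 among them, and 6 of 8 leukocyte markers were called higher in PKI too, with Ptprc at 15.4 ± 3.74 CPM and Lyz2 at 3.67 ± 2.99 CPM in BCC. Their part in the list's rise was not tested. The EGF receptor ligand Areg rose by 3.77 (edgeR adjusted p = 7.75e-05), the iron-binding protein gene Lcn2 by 3.29, and the cornified envelope gene Sprr1a by 2.18. The cytokine gene Il24, tested in PKI alone, stood at 0.0169 CPM in Con, under the level of 3 counts, and at 2.69 ± 1.78 CPM in BCC.

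The same list had genes called in both directions in SmoM2, and in Gnas-eKO its edgeR calls depended on 1 library. In SmoM2 6 of 27 rose and 3 fell, a share near the 29.7% called over all genes, with a median of 0.40 beside 0.00054 over all genes. S100a8 and S100a9 rose by 3.82 and 3.68, and Plaur, the urokinase receptor gene, rose from 0.0705 ± 0.0331 CPM, under the level of 3 counts, to 1.31 ± 0.531 CPM, while the gap junction gene Gjb6, the fatty acid binding protein gene Fabp5 and the cytokine gene Il33 fell by 1.05, 0.95 and 0.70. In Gnas-eKO edgeR called none of 27 (median 1.47 beside 0.020), where 1.63% of all genes were called, with 14 higher and 3 lower at an unadjusted p under 0.05, beside 3212 of 16409 genes. DESeq2 called 11 higher and 2 lower of 33, among 1540 genes in all, and edgeR without BCC replicate 2 called 11 higher and 1 lower, beside 11.8% of all genes.

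Of 22 regulators known to act on these keratin genes or in wounded epidermis, 8 were higher and 4 lower in PKI (median 0.23), 3 and 3 in SmoM2 (median -0.03), and 1 and 0 in Gnas-eKO (median -0.01). These counts stand beside 34.5%, 29.7% and 1.63% of all genes called in the same comparisons, and the share in SmoM2 is near that background. The Hedgehog effector genes Gli1 and Gli2 rose by 4.88 and 3.54 in SmoM2 and by 2.93 and 1.31 in PKI. In Gnas-eKO Gli2 rose by 2.60 and was the 1 regulator called, while Gli1 had 4.67, from 6.74 to 170 CPM (edgeR adjusted p = 0.0715). There DESeq2 called 4 higher and 3 lower of 22, among 1540 genes, and edgeR without BCC replicate 2 also called 4 higher and 3 lower, beside 11.8% of all genes. Fosl1, a subunit of the AP-1 factor, rose by 3.26 in PKI, where Stat3, a mediator of cytokine signals, rose by 0.62. Nr3c1, the glucocorticoid receptor gene, fell by 1.14 in PKI and the epidermal differentiation factors Klf4 and Grhl3 by 0.54 and 0.37. In SmoM2 Trp63, the factor that defines stratified epithelia, rose by 0.48, and Grhl3, Klf4 and Myc fell by 1.22, 0.87 and 0.32.

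**Figure D4:**
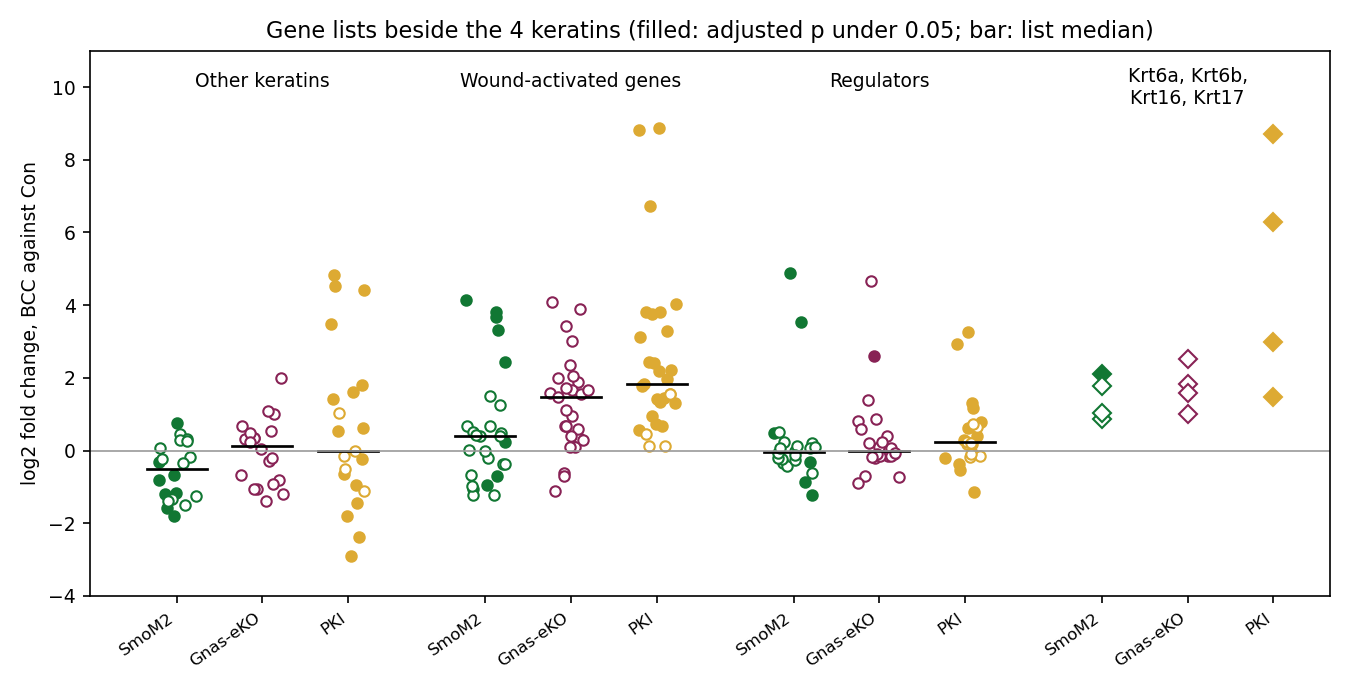
Log2 fold change of BCC against Con for the 4 keratins and for each tested gene of the other keratins, the wound-activated genes and the regulators, by model; filled points passed an edgeR adjusted p of 0.05 and bars mark list medians. The wound-activated list has a median of 1.84 in PKI, 0.40 in SmoM2 and 1.47 in Gnas-eKO, where none of its genes passed.

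Markers of other cells moved with the keratins in part, and their counts below stand beside 34.5% of all genes called in PKI, 29.7% in SmoM2 and 1.63% in Gnas-eKO. The 8 leukocyte markers summed to 25.5 to 39.2 CPM in PKI Con and 72.8 to 99.7 CPM in PKI BCC, with 6 of 8 called higher, whereas in SmoM2 they went from 27.6–36 to 19.1–28 CPM and in Gnas-eKO from 34.7–39.8 to 23.1–50.2 CPM. The neutrophil markers found in the table, 3 of 6, summed to 1.08 to 3.28 CPM in PKI Con, with Csf3r at 0, and to 6 to 12.2 CPM in PKI BCC. Cxcr2 alone of them passed the filter on low counts, at a mean of 2.23 CPM in PKI Con and 8.27 in PKI BCC. Ly6g, Retnlg and Elane were not in the table. The 6 fibroblast markers, of which 2 were called higher in SmoM2, 3 in PKI and 1 in Gnas-eKO, went in sum from 17.1–39.8 to 387–525 CPM in SmoM2, from 15.9–27.4 to 94.2–579 CPM in Gnas-eKO, and in PKI from 15.8–43.5 to 84.4–145 CPM. Most of each sum in BCC is Dcn, at a mean of 88.3 CPM in PKI, 247 in Gnas-eKO and 439 in SmoM2, and the other 5 markers had means of 0.408 to 14.8 CPM in BCC. The 8 markers of outer root sheath and companion layer, follicle compartments where Krt6a, Krt16 and Krt17 are normally made, had 4 called higher in SmoM2, 1 in Gnas-eKO, and 3 higher and 1 lower (Cd34) in PKI, and went in sum from 340–396 to 672–886 CPM in SmoM2, from 339–373 to 422–1100 CPM in Gnas-eKO, and in PKI from 368–419 to 600–726 CPM. The markers called higher differed between models: Sox9, Lhx2, Lgr5 and Tcf7l2 in SmoM2, Lgr5 in Gnas-eKO, and Krt75, Lhx2 and Lgr5 in PKI. Mean Krt75 was 25.8 CPM in Con and 21.6 in BCC of SmoM2, against 18.6 and 208 in PKI. The part of any of these cell types in the keratin changes was not tested. The 4 endothelial markers summed to at most 6.46 CPM in any library, and went in PKI from 1.51–3.9 to 4.36–6.46 CPM. Vwf among them was called higher in SmoM2 and PKI. The 5 melanocyte markers, 4 of which were called lower in PKI, went there from 153–201 to 72.2–117 CPM. Mlana and Tyr were called lower in SmoM2. The summed level of the 7 upper follicle and sebaceous markers overlapped between Con and BCC in every model, within 3010 to 7309 CPM, while Lrig1 was called higher in SmoM2, and Krt79 higher and Mgst1 lower in PKI.

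The genes with the profile most like each keratin were found over the 21 libraries among 12026 genes, by the root mean square difference of log2 CPM after each gene was centred on its own mean, with the 4 keratins themselves left out of the ranking. Nearest to Krt17 were Nckap5l (0.33 log2 units), Tulp3 (0.35), Csf1, Cadm1 and Fam171a2 (0.36 each), against a median of 1.00 over the genes compared. Tulp3, for one, stood at 19.9 ± 0.597 CPM in SmoM2 Con and 103 ± 5.91 CPM in SmoM2 BCC, and at 23.3 ± 4.01 and 44.2 ± 1.14 CPM in PKI. Nearest to Krt6a were Bcl3 (0.39), Smox (0.45), Rab31 (0.48), Ifitm3 (0.54) and Plk2 (0.54), against a median of 1.15. Bcl3 stood at 2.22 ± 0.553 CPM in PKI Con and 27.1 ± 6.62 CPM in PKI BCC, and at 3.6 ± 1.25 and 9.1 ± 2.29 CPM in SmoM2.

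For Krt16 the nearest were 2610528A11Rik (0.58), Bcl3 (0.95), Slc39a8 (0.97), Sprr2d (1.12) and Basp1 (1.15), against a median of 2.17, and for Krt6b 2610528A11Rik (1.32), Aldh1a3 (1.46), S100a9 (1.55), Sprr2d (1.58) and Slc39a8 (1.58), against 2.65. The gene 2610528A11Rik stood at 1.14 ± 0.457 CPM in PKI Con and 119 ± 64.2 CPM in PKI BCC, and at 2.91 ± 1.01 and 6.29 ± 3.2 CPM in SmoM2. Among the 4 keratins, Krt6b and Krt16 differed by 1.10, and none of the 12026 genes was nearer to Krt6b than Krt16 was. Krt6a and Krt17 differed by 0.98, Krt6a and Krt16 by 1.13, Krt6a and Krt6b by 1.73, Krt16 and Krt17 by 1.74, and Krt6b and Krt17 by 2.24. The sequence pair Krt6a and Krt6b was thus less alike in profile than Krt6b and Krt16, with the Krt6 values subject to the division of shared reads.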

How the data were processed

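Per the labels' protocols, tail epidermis was dissociated with trypsin and dispase and polyA RNA was made into stranded libraries. The submitters' processing notes name bcl2fastq 2.20, cutadapt 1.18, STAR 2.7.0f, Partek and the build mm10. Settings, and whether counting used strand, are not given in the sources used here. The authors deposited estimated counts per gene, of which 33.1% are not whole, and a normalized signal, which is each count times a factor per library plus 0.001.

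Estimated counts were rounded and tested with edgeR 4.0.16 (R 4.3.3; filterByExpr by group, TMM, glmQLFit robust, glmQLFTest) in the 7 libraries of a model. Interactions used the 14 libraries of 2 models. DESeq2 1.42.0, limma 3.58.1 on the normalized signal (log2 of value plus 1), no filter, a joint fit, the replicate block and leaving out each library were alternatives. The tests were also run on simulated data in which every gene had the same spread. That run does not show how they do for genes as variable as these keratins. Every pair of libraries of a group differed beyond sampling noise (lowest chi-square over its degrees of freedom 8.93). The level of 3 counts covers counting error alone, because no molecular identifiers are described and reads may be copies of one another. Lengths are those of 1 GENCODE M21 transcript per gene, and deposited gene ends lie 1 base past the annotated ends. Coding sequences were aligned globally, and windows were compared over all transcripts.

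Named were the 4 keratins, Krt5, Krt14, Krt1, Krt10 and Krt75, per list and model up to 3 called genes with the highest and 3 with the lowest log2 fold change, and the 5 genes nearest to each keratin. Areg, Lcn2, Sprr1a, Stat3, Il1b and Krt4, Gli1 in Gnas-eKO and the single cell type markers were named after their values were seen. Smo, Gnas and Pkia were named because the labels refer to them, and Pkia does not check its label. The keratins, gene lists and tests were chosen with earlier results of these data known.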

Additional observations from a re-analysis of the deposited data

Results flagged for a closer look

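Krt6a in Gnas-eKO BCC replicate 2, at 712 CPM, stood apart from the other 3 BCC libraries, at 2292 to 2516 CPM, with a gap of 0.876 of the group's range past Dixon's critical value for 4 samples. Chance gives such a sample in about 1 in 20 groups, and 21 groups of 4 values were tested. The same library lay between Con and BCC on the first principal component.

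The rise from Con to BCC differed between models for 3 of the 4 keratins by edgeR's interaction test. The PKI log2 fold change exceeded that of SmoM2 by 2.12 for Krt6a (edgeR adjusted p = 0.0209), 7.67 for Krt6b (0.000778) and 4.52 for Krt16 (0.000835). It exceeded that of Gnas-eKO by 1.97 for Krt6a (edgeR adjusted p = 0.0279), 6.87 for Krt6b (0.00119) and 3.77 for Krt16 (0.00844). Both Krt6a calls were lost in some fits that left out a library. Its edgeR adjusted p then reached 0.0542 against SmoM2 and 0.0689 against Gnas-eKO. Both sets use the same PKI libraries. For Krt6b they also rest on the low level of PKI Con, a mean of 6.18 CPM. The Con means were 122 CPM in SmoM2 and 118 in Gnas-eKO. Model, batch and day after induction cannot be told apart here.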

How the results depend on the processing

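Under another tool, filter, scaling or fit, 151 tested fold changes kept their direction and side of the threshold, 9 now passed it, 1 no longer did and 1 changed sign. With 1 library left out these numbers were 249, 7, 10 and 7, and 4 shares, which were then not tested, changed sign. DESeq2 called Krt16 in SmoM2 (1.77) and, in Gnas-eKO, Krt6b (1.83), Krt16 (2.51), Krt17 (1.58) and the Krt6 sum (1.12). It called 1540 genes in Gnas-eKO against 267, 204 against 30 between Gnas-eKO and SmoM2, and 2381 against 1564 between PKI and Gnas-eKO. A joint fit of all 21 libraries called Krt16 in SmoM2 (1.76) and Krt16 (2.52) and Krt17 (1.58) in Gnas-eKO, with 2644 genes there and 66 between Gnas-eKO and SmoM2. With no filter Krt17 was called in Gnas-eKO (1.58, edgeR adjusted p = 0.0449). The cause was not tested.

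Leaving out 1 library, the log2 fold change ranged from 1.49 to 2.01 for Krt16 in SmoM2, where without BCC replicate 3 it was 0.38 for Krt6b and 0.53 for Krt6a. In Gnas-eKO it ranged from 0.87 to 1.29 for Krt6a, 1.64 to 2.17 for Krt6b, 1.92 to 2.84 for Krt16, 1.45 to 1.81 for Krt17 and 1.00 to 1.42 for the Krt6 sum, and all 5 were called without BCC replicate 2 alone. From 0 genes (without Con replicate 1 or 2) to 1910 (without BCC replicate 2) were called in Gnas-eKO, 14 to 79 between Gnas-eKO and SmoM2, and 673 to 2512 between PKI and Gnas-eKO. The difference PKI minus SmoM2 ranged from 1.91 to 2.45 for Krt6a and from -0.94 to -0.48 for Krt17. PKI minus Gnas-eKO ranged from 1.70 to 2.11 for Krt6a and from -0.43 to 0.03 for Krt17, and Gnas-eKO minus SmoM2 from -0.04 to 0.49 for Krt6a. The Krt6b share in SmoM2, BCC minus Con, ranged from -1.72 to 1.22 percentage points.

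Same-numbered libraries were not treated as pairs in the main tests. No model had every such pair correlated above 0.1 (SmoM2 -0.08, -0.10 and -0.11; Gnas-eKO 0.02, 0.15 and 0.09; PKI 0.24, -0.05 and 0.14), and of 3 Con libraries 0, 1 and 1 correlated best with their own number. With so few libraries these values cannot exclude that same-numbered mice were paired. With the replicate block 135 genes were called in Gnas-eKO and 925 between PKI and Gnas-eKO, Krt6a between PKI and SmoM2 was at 2.48 (edgeR adjusted p = 0.115), and Krt17 between PKI and Gnas-eKO was at 0.16 (0.844), while Krt6b in SmoM2 was at 0.36 (0.853).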
